A study of Bos taurus with 30 samples.

Results

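WNT proteins are secreted lipid-modified signals that bind frizzled receptors (FZD), membrane proteins of the same or a neighbouring cell. In the canonical branch, binding together with LRP co-receptors stabilises beta-catenin, which acts with TCF and LEF factors on target genes, and other branches act through planar polarity proteins and the ROR receptors. Secreted frizzled-related proteins (SFRP) bind WNT ligands outside the cell, dickkopf proteins (DKK) mostly block the co-receptors, and R-spondins (RSPO) keep frizzled at the cell surface by clearing the ligases RNF43 and ZNRF3. In the uterus, WNT signals between the epithelium and the underlying stroma are known for their role in gland formation and in preparing the endometrium for implantation.

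The genes described here are those whose symbol, in the tables that accompany the counts, starts with WNT, FZD, SFRP, DKK or RSPO followed by a digit. The rule found 32 of the 27607 genes counted, all protein coding, namely 13 WNT ligands, 10 frizzled receptors, 4 SFRP genes, 3 DKK genes and 2 RSPO genes. Further family genes that RefSeq names in cattle, among them WNT1, WNT16 and DKK4, were matched to no counted gene and were not analysed here. Levels are given as CPM (the count of a gene divided by the library's total count and multiplied by 1000000) and are compared between libraries, not between genes, since gene lengths were not used.

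The 30 libraries came from bovine endometrial cells cultured for 72 hours under flow in a microfluidic device, with epithelial cells in the upper chamber and stromal cells on the lower side of a porous membrane. In the glucose experiment both cell types received 5 mM or 50 mM glucose, and in the insulin experiment they received vehicle, 1 ng/mL or 10 ng/mL insulin, all at 5 mM glucose. Each of the 10 groups held 3 replicates of primary cells, which came from cows that were not pregnant and were at days 4 to 7 of the cycle. The comparisons asked how glucose and insulin alter each cell type, in a device whose stromal cells were enriched rather than purified. The study took 5 mM glucose as the normal level and 50 mM as the top of a dose response, which it calls a physiological extreme. Only the insulin doses were chosen as extremes found in the blood of cows.

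Libraries of the glucose experiment held 13493503 to 16647701 counted reads and those of the insulin experiment 8826470 to 13214728. A count of 0 allows up to 3 reads, which is 0.180 to 0.222 CPM in the glucose and 0.227 to 0.340 CPM in the insulin libraries, for counting error only. The labelled cell types were checked against 20 epithelial and 19 stromal fibroblast markers, and the epithelial markers summed to between 8603.8 and 16475 CPM in epithelial libraries and between 5.70 and 5868.83 CPM in stromal ones. The median epithelial marker, as a share of its mean in epithelial control cells, was 13.7%, 5.21% and 59.1% in stromal replicates 1, 2 and 3 at 50 mM glucose. It was 7.16% in stromal replicate 1 at 5 mM, 3.70% in replicate 2 of the vehicle group and 3.69% in replicate 1 at 10 ng/mL insulin, and at most 0.356% in the remaining stromal libraries, where up to 10 of the 20 markers were at 0. In epithelial libraries the median stromal marker stood at 1.36% to 11.3% of its level in stromal control cells. Markers of smooth muscle and pericytes summed to between 500.3 and 4018.56 CPM in stroma and between 7.81 and 339.987 CPM in epithelial libraries. In such bulk samples fewer cells of a type cannot be told apart from less RNA per cell.

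Most of these genes differed between the cell types, the larger part with the higher level in stroma. A gene was called where the adjusted p of edgeR's quasi-likelihood test (Benjamini-Hochberg, over all genes tested) was under 0.05 and the log2 fold change beyond 0.1. At 5 mM glucose 29 of the 32 genes were tested. Of these 5 were called higher in epithelial cells and 15 in stromal cells, beside 10.8% and 10.7% of 13286 protein-coding genes. With vehicle 5 and 17 of 25 tested were called, beside 28.2% and 27.8% of 12876 protein-coding genes. At 1 ng/mL insulin the counts were 5 and 20 of 26 (background 29.9% and 29.5%), and at 10 ng/mL 6 and 19 of 27 (background 27.3% and 27.6%). In the insulin experiment the epithelial share thus lay below the background and the stromal share above it.

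Over the 29 members tested at 5 mM, the median log2 fold change of epithelial over stromal cells was -2.10, and over the 25 tested with vehicle it was -3.68, where the medians over protein-coding genes were 4.24e-05 and -0.00223. The filter passes a gene with enough reads in only one of the cell types, so some of the members tested had to differ. Across the 5 comparisons of the cell types, 0 members were called in opposite directions, a count that was not made over all genes. Of the 29 members tested in at least 1 of them, WNT7A, WNT7B and FZD5 were called higher in epithelial cells in all 5 and 14 were called higher in stromal cells in all 5, beside 4.53% and 7.71% of 13584 protein-coding genes tested in at least 1. RSPO2, SFRP4 and SFRP5 had too few reads to be tested in any.

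**Figure D1:**
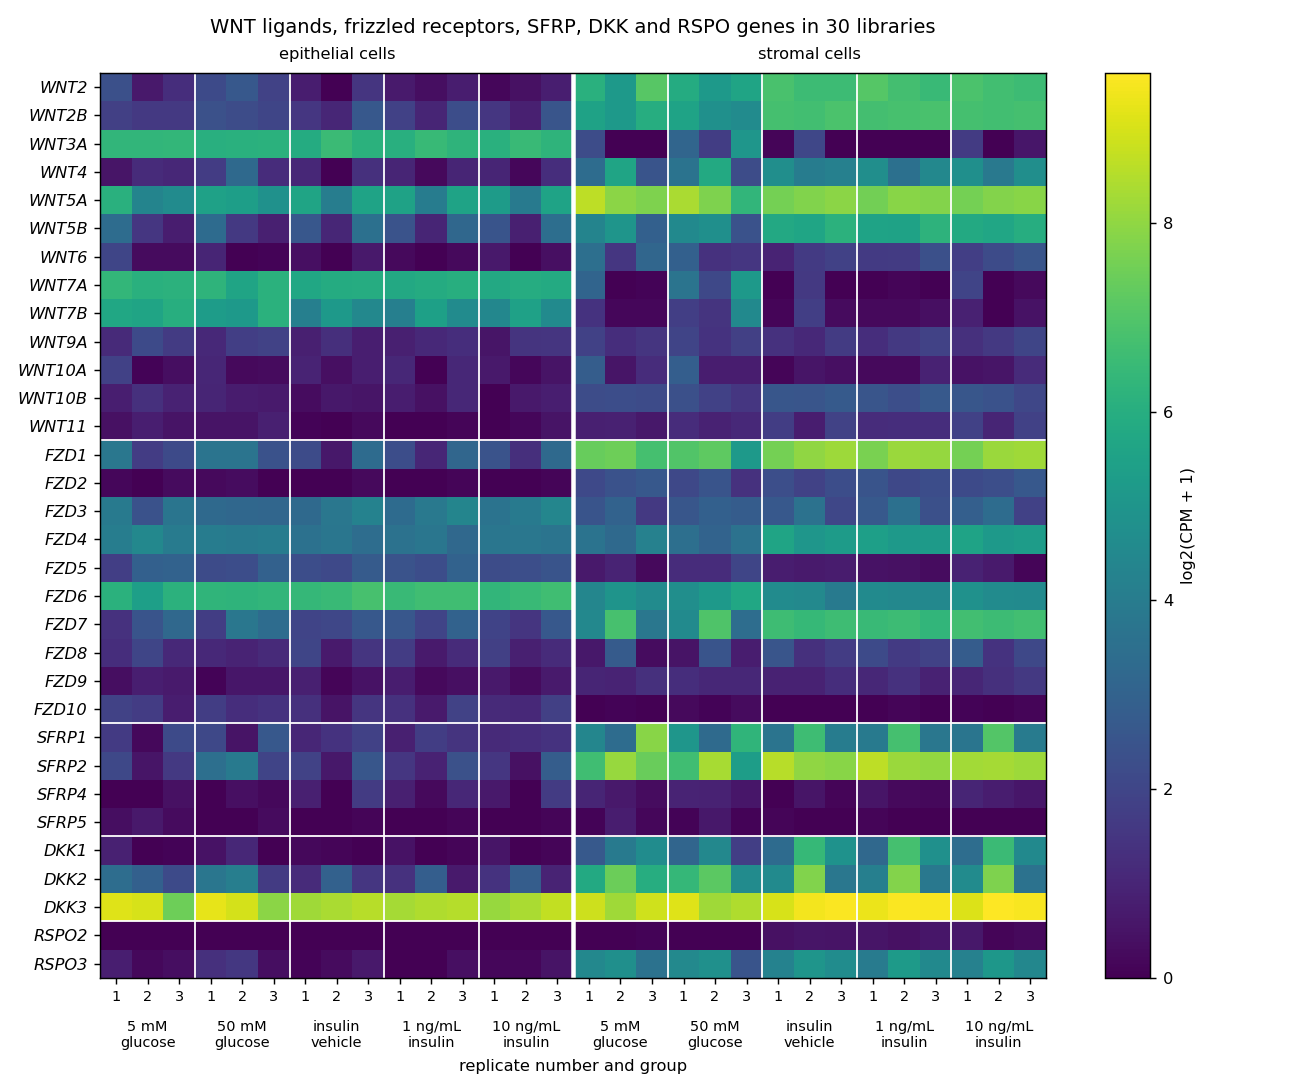
Level of the 32 genes in the 30 libraries, as log2(CPM + 1), with genes in rows by family and libraries in columns by cell type, group and replicate number. Colours compare a gene between libraries, not genes with each other. WNT3A, WNT7A and WNT7B are high across the 15 epithelial libraries, and WNT2, WNT2B, FZD1 and SFRP2 across the 15 stromal libraries.

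WNT3A, WNT7A and WNT7B were the ligand genes higher in epithelial cells. WNT3A (ENSBTAG00000039397), known for activating the canonical branch, had 77.7, 79.1 and 81.2 CPM in epithelial replicates 1, 2 and 3 at 5 mM glucose and 3.71, 0 and 0 CPM in the stromal replicates. With vehicle it had 58.5, 90.7 and 69.2 CPM in epithelial and 0.0875, 3.17 and 0 CPM in stromal cells. The cell types did not overlap, and the highest stromal values were in the libraries with epithelial markers at 7.16% and 3.70%. The log2 fold change (± its standard error) was 7.43 ± 1.59 at 5 mM (adjusted p = 0.0234, edgeR) and 6.22 ± 0.811 with vehicle (adjusted p = 0.00390). At 1 ng/mL insulin all 3 stromal libraries were at 0, and the epithelial mean was at least 269.9-fold higher than the 3-read limit of the shallowest of them.

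WNT7A (ENSBTAG00000001668), known for its epithelial pattern and its role in uterine glands, had 80.0, 67.3 and 70.3 CPM in epithelial cells and 7.49, 0 and 0.0610 CPM in stroma at 5 mM. With vehicle WNT7A had 51.0, 58.4 and 59.9 CPM in epithelial cells and 0, 1.99 and 0 CPM in stroma. It was called at 6.83 ± 1.64 (adjusted p = 0.0335) and 6.40 ± 0.846 (adjusted p = 0.00405). WNT7B (ENSBTAG00000048365), its close relative, had 51.0, 47.6 and 64.1 CPM in epithelial cells and 1.63, 0.126 and 0.122 CPM in stroma at 5 mM. With vehicle WNT7B had 16.5, 35.5 and 21.0 CPM in epithelial cells and 0.0875, 2.44 and 0.217 CPM in stroma, and it was called at 6.79 and 4.87 (adjusted p = 0.00763 and 0.00334). Neither gene overlapped between the cell types, and the stromal reads of both were highest in the libraries where those of WNT3A were. Without replicate 2 the calls at 5 mM were lost for WNT3A (5.79, adjusted p = 0.0518) and WNT7A (4.99, adjusted p = 0.0741), and without the replicate block for WNT7A (4.61, adjusted p = 0.0708).

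Most other ligand genes were higher in stroma. WNT5A (ENSBTAG00000020221), a ligand of the branch through ROR receptors, had 396, 242 and 211 CPM in stromal cells and 67.7, 19.0 and 23.8 CPM in epithelial cells at 5 mM. With vehicle WNT5A had 189, 217 and 239 CPM in stroma and 47.3, 15.9 and 46.0 CPM in epithelial cells (-2.77 ± 0.407, adjusted p = 0.00530). It was read in each epithelial library, down to 14.2 CPM. WNT2 (ENSBTAG00000008097), a mesenchymal ligand in several organs, had 66.8, 34.3 and 136 CPM in stroma and 4.12, 0.593 and 1.37 CPM in epithelial cells at 5 mM. Its vehicle values were 113, 93.3 and 94.3 CPM in stroma and 0.706, 0 and 1.78 CPM in epithelial cells. WNT2B (ENSBTAG00000014291), its paralog, had 45.6, 35.6 and 62.3 CPM in stroma and 2.53, 2.00 and 1.99 CPM in epithelial cells at 5 mM, and with vehicle 107, 102 and 116 CPM in stroma and 1.88, 1.03 and 5.25 CPM in epithelial cells. The cell types did not overlap for these 3 genes, and WNT2 and WNT2B were called at -5.66 and -4.64 at 5 mM (adjusted p = 0.00558 and 0.00543).

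WNT4 (ENSBTAG00000051083), needed in the mouse for uterine development and decidualisation, had 9.45, 47.3 and 4.64 CPM in stroma and 0.466, 1.26 and 1.10 CPM in epithelial cells at 5 mM. With vehicle WNT4 had 26.0, 15.4 and 16.9 CPM in stroma and 1.10, 0 and 1.501 CPM in epithelial cells. It was called at -4.11 ± 0.715 (adjusted p = 0.0131) and -4.59 ± 0.603 (adjusted p = 0.00399), and the stromal replicates were spread more widely in the glucose than in the insulin experiment. WNT5B (ENSBTAG00000054367), the paralog of WNT5A, had 19.0, 31.0 and 6.59 CPM in stroma and 9.58, 1.85 and 0.685 CPM in epithelial cells at 5 mM, which overlap, although stroma was higher in 3 of 3 pairs. With vehicle WNT5B did not overlap, at 53.6, 49.0 and 71.3 CPM in stroma and 5.02, 1.03 and 10.7 CPM in epithelial cells.

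WNT6 (ENSBTAG00000013990) and WNT10B (ENSBTAG00000015347), both ligands of the canonical branch, were read at low levels. WNT6 had 10.2, 1.89 and 7.87 CPM in stroma and 2.99, 0.222 and 0.206 CPM in epithelial cells at 5 mM, which overlap, and 0.962, 2.08 and 2.60 CPM in stroma and 0.314, 0 and 0.563 CPM in epithelial cells with vehicle, which do not. WNT10B had 3.71, 3.77 and 3.60 CPM in stroma and 0.732, 1.48 and 0.891 CPM in epithelial cells at 5 mM, and 4.90, 4.80 and 5.53 CPM in stroma and 0.235, 0.517 and 0.469 CPM in epithelial cells with vehicle. Stroma was thus above epithelium in each pair of both genes. The calls at 5 mM were lost for WNT6 without replicate 2 or 3 (adjusted p = 0.0675 and 0.0844), for WNT10B without replicate 1 or 3 (0.128 and 0.222), for WNT5B without replicate 2 (0.0796), and for WNT6 and WNT5B without the replicate block (0.117 for both). With vehicle, WNT6 was not called without replicate 1 or 3 (adjusted p = 0.0751 and 0.0996).

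WNT9A, WNT10A and WNT11 gave no call at 5 mM. With vehicle WNT9A was not called, and WNT10A and WNT11 had too few reads to be tested. WNT9A, in RefSeq the next coding gene to WNT3A, had group means of 0.994 to 2.36 CPM and at 5 mM overlapping groups with a log2 fold change of -0.04 ± 0.643. It was called at 1 ng/mL insulin, at -0.99 (adjusted p = 0.0379). WNT10A, the next coding gene to WNT6, was called higher in stroma at 50 mM (-2.40, adjusted p = 0.0255), with overlapping groups. WNT11, a ligand of the planar polarity branch, was called higher in stroma at 1 ng/mL insulin, where 47 stromal reads stood against 1 epithelial read. The pooled ratio was 42.3 (exact 95% interval 7.23 to 1710, for counting error only). With vehicle 60 stromal reads of WNT11 stood against 3 epithelial reads, a ratio of 20.9 (6.81 to 104).

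Frizzled receptors also divided. FZD5 (ENSBTAG00000020957), a receptor for canonical ligands in epithelia, had 2.46, 6.67 and 6.99 CPM in epithelial cells and 0.586, 0.943 and 0.183 CPM in stroma at 5 mM. With vehicle FZD5 had 3.76, 3.31 and 5.82 CPM in epithelial cells and 0.700, 0.634 and 0.650 CPM in stroma, again without overlap. It was called at 3.01 ± 0.731 (adjusted p = 0.0344) and 2.56 ± 0.304 (adjusted p = 0.00311), but not at 5 mM without replicate 2 or 3 (adjusted p = 0.0731 and 0.151). FZD6 (ENSBTAG00000010529), a receptor of the planar polarity branch, had 68.0, 41.5 and 70.6 CPM in epithelial cells and 20.004, 29.8 and 23.5 CPM in stroma at 5 mM. Each epithelial library was above each stromal one, yet the difference of 1.06 was not called (adjusted p = 0.0957). With vehicle FZD6 had 81.6, 90.0 and 109 CPM in epithelial cells and 23.7, 22.1 and 14.4 CPM in stroma and was called at 2.16 (adjusted p = 0.00206). FZD10 (ENSBTAG00000007047) had 2.73, 2.22 and 0.685 CPM in epithelial cells and 0, 0.0629 and 0 CPM in stroma at 5 mM, with 81 reads against 1 and a call (adjusted p = 0.0105). With vehicle 42 epithelial reads stood against 0 stromal reads, at least 3.779-fold higher by the 3-read limit of the shallowest stromal library.

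FZD1, FZD2 and FZD7 were higher in stroma. FZD1 (ENSBTAG00000002107) had 165, 175 and 107 CPM in stroma and 12.8, 2.22 and 3.49 CPM in epithelial cells at 5 mM. With vehicle FZD1 had 192, 253 and 289 CPM in stroma and 3.53, 0.517 and 9.19 CPM in epithelial cells. It was called at -5.16 ± 0.595 (adjusted p = 0.00558) and -6.15 ± 0.725 (adjusted p = 0.00306), with no overlap. FZD2 (ENSBTAG00000020590) had 3.39, 4.401 and 5.25 CPM in stroma and at most 0.206 CPM in epithelial cells at 5 mM. Its pooled ratio was 37.7 from 208 reads against 5 (exact 95% interval 15.9 to 117, for counting error only). With vehicle its ratio was 57.4 from 110 reads against 2 (15.5 to 480). FZD7 (ENSBTAG00000002283), a receptor of stem cells in several tissues, had 21.3, 109 and 13.1 CPM in stroma and 1.60, 4.59 and 8.43 CPM in epithelial cells at 5 mM. With vehicle FZD7 had 96.6, 85.2 and 96.3 CPM in stroma and 2.90, 3.10 and 5.16 CPM in epithelial cells, and it was called at -3.26 and -4.75 (adjusted p = 0.0443 and 0.000899). Its call at 5 mM was lost without replicate 2 (-2.31, adjusted p = 0.135), the replicate with the highest stromal value.

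FZD4 (ENSBTAG00000040128), the receptor of norrin as well as of WNT ligands, was called in the insulin experiment alone. At 5 mM glucose it had 15.7, 21.1 and 15.1 CPM in epithelial cells and 11.6, 8.80 and 17.6 CPM in stroma (0.27, adjusted p = 0.722). With vehicle, also at 5 mM glucose, it had 10.8, 12.7 and 9.85 CPM in epithelial cells and 48.1, 32.2 and 37.4 CPM in stroma (-1.89 ± 0.179, adjusted p = 0.00195). Stromal FZD4 was 32.2 to 48.1 CPM over the 9 libraries of the insulin experiment and 7.37 to 17.6 CPM over the 6 of the glucose experiment, and this difference between separate experiments was not tested. FZD3 had epithelial group means between 8.33 and 15.4 CPM and stromal ones between 4.58 and 6.75 CPM, and it was called in none of the 5 comparisons. FZD8 was called higher in stroma at 1 and 10 ng/mL insulin (-1.16 and -1.31) with overlapping groups, and FZD9 at 10 ng/mL (-1.77).

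**Figure D2:**
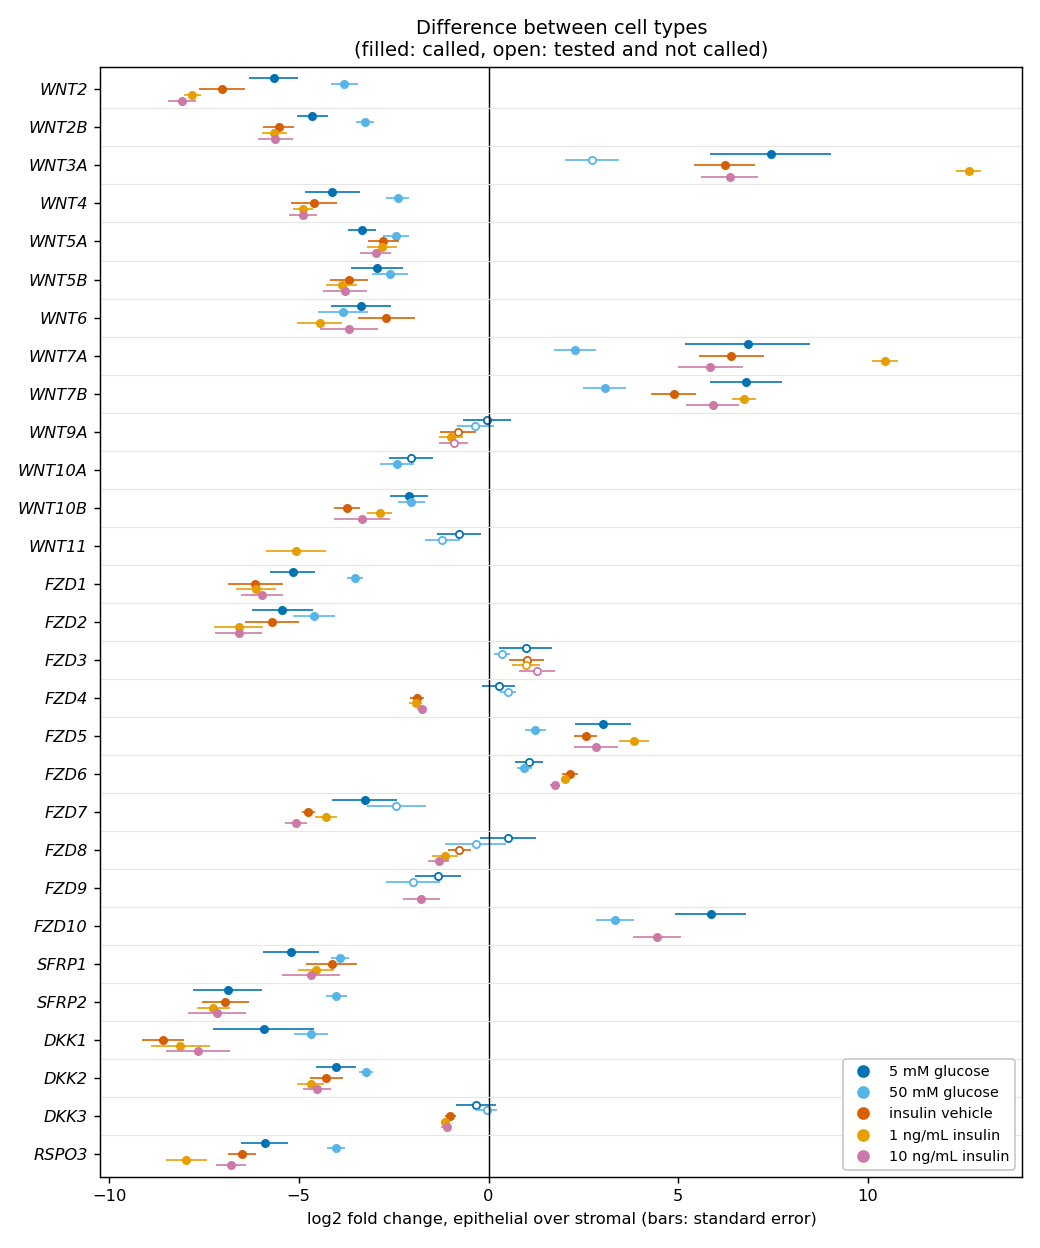
Log2 fold change of the 29 genes tested, epithelial over stromal, in each of the 5 comparisons, with bars of 1 standard error and filled points for calls. WNT3A, WNT7A, WNT7B, FZD5, FZD6 and FZD10 lie right of 0 in each comparison that tested them, and FZD4 lies right of 0 in the glucose and left of it in the insulin comparisons. Points beyond 10 are WNT3A and WNT7A at 1 ng/mL insulin, with 0 and 1 stromal reads, whose fitted size depends on the prior count.

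Among secreted inhibitors, SFRP1, SFRP2, DKK1 and DKK2 were higher in stroma in all 5 comparisons. SFRP2 (ENSBTAG00000018563), known from mesenchymal cells, had 100.5, 277 and 168 CPM in stroma and 3.26, 0.445 and 1.99 CPM in epithelial cells at 5 mM. With vehicle SFRP2 had 379, 253 and 237 CPM in stroma and 2.74, 0.517 and 4.97 CPM in epithelial cells, and it was called at -6.87 ± 0.910 (adjusted p = 0.00706) and -6.93 ± 0.618 (adjusted p = 0.00170). SFRP1 (ENSBTAG00000027625), which binds WNT ligands like SFRP2, had 19.9, 9.49 and 238 CPM in stroma and 2.13, 0.148 and 3.43 CPM in epithelial cells at 5 mM. With vehicle SFRP1 had 11.8, 97.9 and 15.5 CPM in stroma and 1.02, 1.65 and 2.63 CPM in epithelial cells, and it was called at -5.20 and -4.13 (adjusted p = 0.00774 and 0.00714). Neither gene overlapped between the cell types. SFRP4 and SFRP5 held at most 23 and 11 reads in any library.

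DKK1 (ENSBTAG00000014218), which blocks the LRP co-receptors, had 5.47, 14.0 and 24.5 CPM in stroma and 0.865, 0 and 0.0685 CPM in epithelial cells at 5 mM (-5.93 ± 1.33, adjusted p = 0.0270). With vehicle 1310 stromal reads stood against 3 epithelial reads, a pooled ratio of 456 (exact 95% interval 156 to 2210, for counting error only). Of these stromal reads 942 lay in 1 library, and the stromal libraries ranged from 9.27 to 85.3 CPM of DKK1. Its call at 5 mM was lost without replicate 2 (-4.89, adjusted p = 0.0608). DKK2 (ENSBTAG00000012969), its relative, had 55.97, 174 and 61.8 CPM in stroma and 9.65, 6.67 and 3.49 CPM in epithelial cells at 5 mM. With vehicle DKK2 had 23.3, 220.0 and 12.8 CPM in stroma and 1.25, 6.82 and 1.88 CPM in epithelial cells, and it was called at -4.02 and -4.27 (adjusted p = 0.00678 and 0.00235). The cell types did not overlap for DKK1 or DKK2. DKK3 (ENSBTAG00000004275), a divergent member with a less clear part in WNT signalling, was read in both cell types. It had 466, 294 and 474 CPM in stroma and 551, 509 and 177 CPM in epithelial cells at 5 mM, which overlap (-0.33, adjusted p = 0.723). With vehicle DKK3 had 514, 679 and 743 CPM in stroma and 301, 326 and 380.0 CPM in epithelial cells, which do not, and it was called at -1.01 (adjusted p = 0.00522).

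Of the R-spondins, RSPO3 (ENSBTAG00000008121) had 21.0, 26.2 and 11.4 CPM in stroma and 0.732, 0.148 and 0.274 CPM in epithelial cells at 5 mM. With vehicle RSPO3 had 17.9, 31.2 and 24.4 CPM in stroma and 0.0784, 0.207 and 0.563 CPM in epithelial cells. The cell types did not overlap, and it was called at -5.90 ± 0.617 (adjusted p = 0.00543) and -6.50 ± 0.368 (adjusted p = 0.000936). RSPO2 was at 0 in the 15 epithelial libraries, which allows up to 0.340 CPM, and held at most 7 reads in a stromal library.

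Other genes of the pathway came from a list of 67, of which 61 were found in the counts. At 5 mM 7 of the 53 tested were called higher in epithelial cells and 15 in stroma, beside 10.8% and 10.7% of protein-coding genes. With vehicle 16 and 24 of 52 were called, beside 28.2% and 27.8%, and the median log2 fold changes were -0.11 and -0.23. In both comparisons 20 of the 54 genes tested in at least 1 were called the same way, 6 higher in epithelial cells and 14 in stroma, beside 9.47% and 9.21% of 13427 protein-coding genes. CELSR1 and CELSR2, cadherin-like proteins of planar polarity, were higher in epithelial cells at 7.16 and 4.17 at 5 mM and 5.995 and 5.12 with vehicle. CELSR1 had 84.1, 170.2 and 75.3 CPM in epithelial cells and 2.74, 0.0629 and 0.305 CPM in stroma at 5 mM. RNF43, the ligase that removes frizzled from the membrane and that R-spondins clear, was higher in epithelial cells at 4.31 and 5.43 (adjusted p = 0.0179 and 0.000955), opposite to RSPO3.

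The ROR receptors, which bind WNT5A, were higher in stroma, ROR1 at -6.57 and -4.25 and ROR2 at -4.59 and -3.84 at 5 mM and with vehicle. NKD1, a feedback inhibitor that canonical signalling induces, had 1.95, 9.05 and 11.6 CPM in stroma and at most 0.0741 CPM in epithelial cells at 5 mM. DAAM2, which acts downstream of dishevelled, and the glypican GPC4 were higher in stroma at -3.77 and -4.07 at 5 mM and -4.85 and -4.28 with vehicle. Of the feedback targets in the list, 1 of 8 tested at 5 mM was called higher in epithelial cells (ASCL2) and 3 in stroma (NKD1, TNFRSF19 and AXIN2), with a median of -0.16. With vehicle 1 of 7 was called higher in epithelial cells (APCDD1) and 4 in stroma (the same 3 and NKD2), with a median of -2.70. Among protein-coding genes 10.8% and 10.7% were called at 5 mM and 28.2% and 27.8% with vehicle, and medians over so few targets are loose. AXIN2, a target often used as a readout of canonical signalling, and LEF1, a nuclear factor of the pathway listed apart from the feedback targets, are given here after their values were seen. AXIN2 had 6.19, 2.07 and 4.45 CPM in stroma and 2.20, 0.371 and 0.891 CPM in epithelial cells at 5 mM, with overlap, and was called at -2.27 and -2.87 (adjusted p = 0.0251 and 0.0165). LEF1 had 111, 153 and 123 CPM in epithelial cells and 37.1, 7.98 and 11.2 CPM in stroma at 5 mM and was called at 2.90 and 2.76 (adjusted p = 0.0241 and 0.00783).

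At 50 mM glucose, 5 of the 29 members tested were called higher in epithelial cells and 15 in stroma, beside 6.57% and 11% of 13235 protein-coding genes. In stromal replicate 3 of this group, where the median epithelial marker stood at 59.1% and the median stromal marker at 45.8% of control, WNT3A had 31.8 CPM, WNT7A 35.2 CPM and WNT7B 22.4 CPM. The same library had the lowest stromal values of this group for FZD1, SFRP2 and DKK1, at 35.3, 39.4 and 2.42 CPM. WNT3A was not called at 50 mM (2.73, adjusted p = 0.0552), nor was FZD7 (-2.43, adjusted p = 0.0849). Without replicate 3, 5 members were called higher in epithelial cells and 16 in stroma, beside 1776 and 2009 of 13338 protein-coding genes. Without replicate 1, however, 0 members and 0 of 13351 protein-coding genes were called. Without the replicate block, 2 and 7 members were called, beside 246 and 806 of 13235 protein-coding genes, against 870 and 1458 with it.

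Over the stromal libraries, reads of the epithelial ligand genes lay where epithelial markers were read. As a share of their mean in epithelial control libraries, WNT3A stood at 4.68%, WNT7A at 10.3% and WNT7B at 3.0% in replicate 1 at 5 mM glucose, beside a median epithelial marker of 7.16%. In replicate 3 at 50 mM they stood at 40.0%, 48.5% and 41.4% beside 59.1%, and in replicate 2 of the vehicle group at 4.35%, 3.53% and 10.0% beside 3.70%. In the 8 stromal libraries with the median epithelial marker at 0.0937% or less, WNT3A stood at 0.120% or less, WNT7A at 0.150% or less and WNT7B at 1.32% or less. FZD5 stood at 3.41% to 17.6% of its epithelial mean in those 8 libraries. The part of epithelial cells or RNA in these values was not tested.

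**Figure D3:**
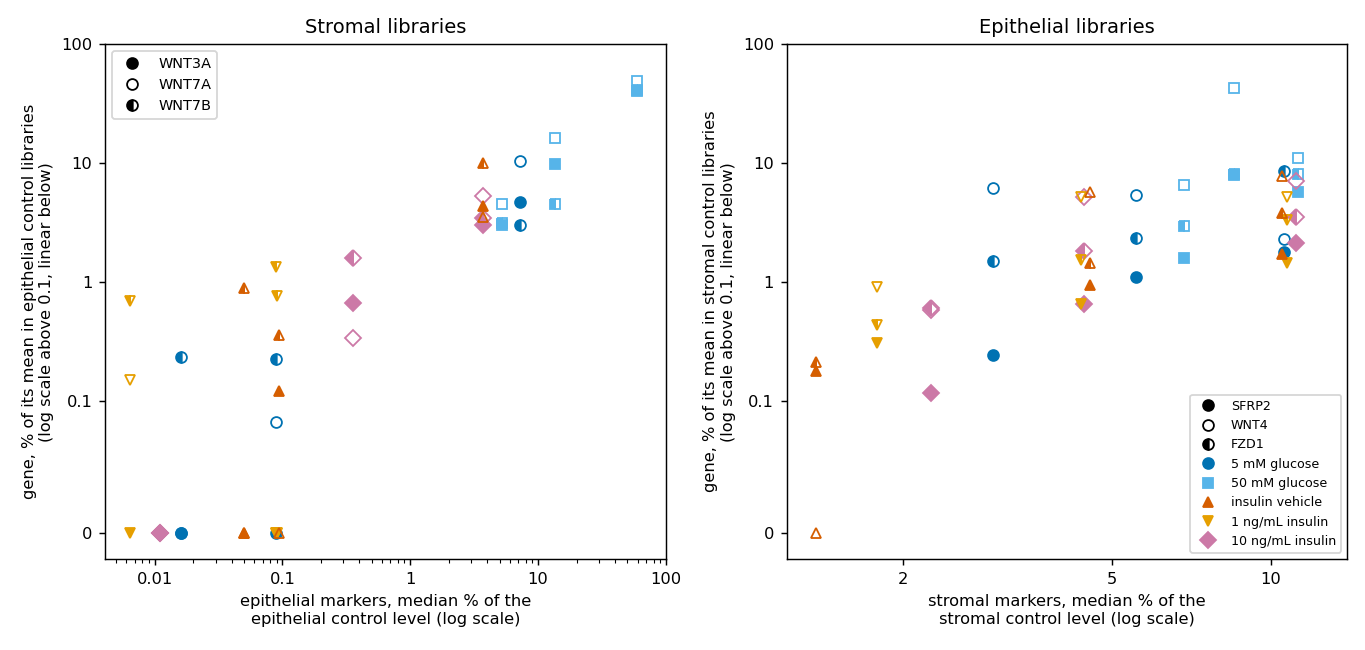
Left, WNT3A, WNT7A and WNT7B in the 15 stromal libraries as a percentage of their mean in epithelial control libraries, against the median epithelial marker on the same scale. Right, SFRP2, WNT4 and FZD1 in the 15 epithelial libraries as a percentage of their mean in stromal control libraries, against the median stromal marker. Each point is 1 gene in 1 library, all axes are logarithmic (the vertical ones linear below 0.1 to show values of 0), and the stromal library at 59.1% holds 40.0% to 48.5% of the ligands' epithelial level.

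High glucose gave 0 calls on the 32 genes in either cell type with edgeR and 0 with DESeq2. With edgeR, 0% of protein-coding genes were called. The study itself reported altered protein-coding genes in both cell types, with DESeq2 and a cut-off it gives as p under 0.05. At an unadjusted p under 0.05, 2 of 23 members tested passed in epithelial cells and 0 of 29 in stroma, beside 1.54% and 4.96% of protein-coding genes. WNT4 had 0.466, 1.26 and 1.10 CPM in epithelial replicates 1, 2 and 3 at 5 mM and 2.26, 8.77 and 1.33 CPM at 50 mM, without overlap (log2 fold change 1.83 ± 0.583, unadjusted p = 0.0218, adjusted p = 0.804, edgeR). SFRP2 had 3.26, 0.445 and 1.99 CPM at 5 mM and 10.3, 14.4 and 2.88 CPM at 50 mM, with overlap (2.18 ± 0.825, unadjusted p = 0.0406, adjusted p = 0.804). Both were higher at 50 mM in 3 of 3 pairs. The median stromal marker in these epithelial libraries stood at 10.6%, 2.97% and 5.54% at 5 mM and at 11.3%, 8.52% and 6.85% at 50 mM, and its part in the result was not tested. Without replicate 2, SFRP2 was called at 1.29 (adjusted p = 0.0289).

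In stroma the largest fitted glucose differences were those of the epithelial ligand genes, named here after their values were seen. WNT3A differed by 4.09 ± 1.77, WNT7A by 3.87 ± 1.78 and WNT7B by 3.36 ± 1.45, each higher at 50 mM in 3 of 3 pairs and none called (adjusted p = 0.696 for WNT3A). The median epithelial marker in the same pairs stood at 7.16%, 0.0160% and 0.0897% at 5 mM and at 13.7%, 5.21% and 59.1% at 50 mM, and its part in the result was not tested. Without replicate 1, WNT7A was called at 8.84 (adjusted p = 0.0291). Of the 29 members tested, 7 were higher and 4 lower at 50 mM in 3 of 3 pairs, a count that was not made over all genes. The 4 were WNT6, FZD1, WNT5A and FZD4, at -1.05, -0.80, -0.68 and -0.43, and none was called (adjusted p = 0.696 for each). The median stromal marker in these libraries stood at 106%, 79.7% and 113% of control at 5 mM and at 106%, 68.7% and 45.8% at 50 mM in replicates 1, 2 and 3, and its part in the result was not tested.

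Whether glucose acted differently in the cell types was tested as a difference of effects, epithelial minus stromal. With edgeR it gave 0 calls among 30 members (0% of protein-coding genes) and with DESeq2 1 (WNT7A, log2 difference of -6.54, adjusted p = 0.0488), and 7 members passed an unadjusted p under 0.05, beside 7.65% of protein-coding genes. WNT7B, WNT7A and WNT3A had -3.56, -4.03 and -4.22, and without replicate 1 these 3 were called (adjusted p = 0.00474, 0.000434 and 0.000573). In stromal replicates 2 and 3 at 5 mM, WNT7B had 0.126 and 0.122, WNT7A 0 and 0.0610 and WNT3A 0 and 0 CPM. The median epithelial marker in these replicates stood at 0.0160% and 0.0897% at 5 mM and at 5.21% and 59.1% at 50 mM. Its part in these calls was not tested. WNT2B, WNT4, RSPO3 and SFRP2 had 1.40, 1.81, 2.02 and 2.81. WNT2B went from 2.53, 2.00 and 1.99 to 4.16, 3.72 and 3.02 CPM in epithelial cells and from 45.6, 35.6 and 62.3 to 46.0, 26.9 and 23.5 CPM in stroma. RSPO3 went from 0.732, 0.148 and 0.274 to 1.53, 1.92 and 0.281 CPM in epithelial cells and from 21.0, 26.2 and 11.4 to 21.8, 26.8 and 4.69 CPM in stroma. For both genes the lowest stromal value at 50 mM was in replicate 3, the library with epithelial markers at 59.1%.

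Insulin likewise gave 0 calls on these genes with edgeR and 0 with DESeq2 in the 6 comparisons. The log2 fold changes ran from -0.62 to 0.98 and the smallest adjusted p was 0.441. Protein-coding genes called with edgeR were 0.113% at 10 ng/mL over vehicle in epithelial cells, 0.0244% between 1 and 10 ng/mL in stroma and 0% in the other comparisons. In epithelial cells WNT7B had 16.5, 35.5 and 21.0 CPM with vehicle and 20.6, 43.6 and 23.3 CPM at 10 ng/mL, higher in 3 of 3 pairs with overlapping groups (0.25 ± 0.0817, unadjusted p = 0.00470, adjusted p = 0.441). WNT5A had 47.3, 15.9 and 46.0 CPM with vehicle and 37.5, 14.2 and 46.3 CPM at 10 ng/mL (-0.17, unadjusted p = 0.0415, adjusted p = 0.695). These 2 of 20 members stood beside 6.78% of protein-coding genes with an unadjusted p under 0.05. FZD7 had 2.90, 3.10 and 5.16 CPM with vehicle, 5.07, 2.90 and 7.06 CPM at 1 ng/mL and 2.78, 1.81 and 5.25 CPM at 10 ng/mL. It differed by 0.43 between 1 ng/mL and vehicle (unadjusted p = 0.0426, adjusted p = 1.00) and by -0.62 between 10 and 1 ng/mL (unadjusted p = 0.00624, adjusted p = 0.983), where 2.87% and 4.29% of protein-coding genes passed.

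In stroma WNT6 had 0.962, 2.08 and 2.60 CPM with vehicle, 2.13, 2.20 and 4.03 CPM at 1 ng/mL and 2.42, 3.60 and 4.80 CPM at 10 ng/mL. It was higher at each higher dose in 3 of 3 replicates, but the groups overlapped and it was not called (0.98 ± 0.237 for 10 ng/mL over vehicle, unadjusted p = 0.00282, adjusted p = 0.999). FZD6 had 23.7, 22.1 and 14.4 CPM with vehicle and 27.5, 23.9 and 23.2 CPM at 10 ng/mL (0.33, unadjusted p = 0.0227, adjusted p = 0.999), where 2.73% of protein-coding genes passed. SFRP2 had 379, 253 and 237 CPM with vehicle and 393, 283 and 261 CPM at 1 ng/mL (0.15, unadjusted p = 0.0120, adjusted p = 0.895). DKK3 had 514, 679 and 743 CPM with vehicle and 633, 749 and 717 CPM at 1 ng/mL (0.16, unadjusted p = 0.0450, adjusted p = 0.917), where 5.03% of protein-coding genes passed. Between 1 and 10 ng/mL 0 members passed in stroma, beside 3.68%. Of the 180 tests of members over the 8 treatment comparisons, 10 had an unadjusted p under 0.05, and 0 of the 47 to 54 pathway genes tested in each were called.

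**Figure D4:**
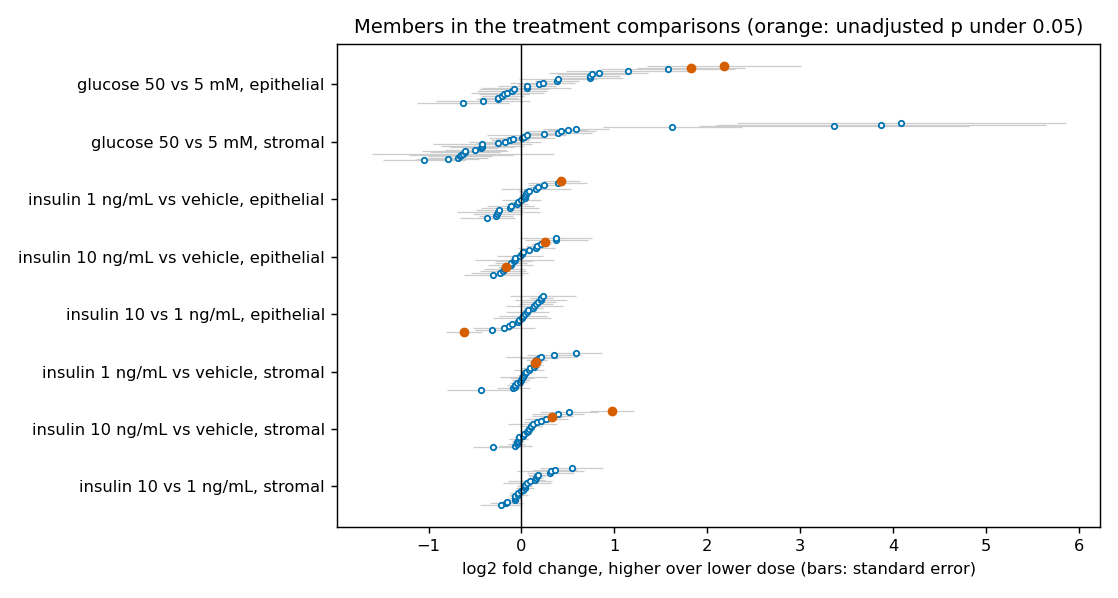
Log2 fold change, higher over lower dose, of each member tested in the 8 treatment comparisons, with bars of 1 standard error. The 10 orange points passed an unadjusted p under 0.05 and 0 passed after adjustment, and the points from 3.36 to 4.09 in stromal cells at high glucose are WNT7B, WNT7A and WNT3A.

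In the test of whether 1 ng/mL insulin acted differently in the cell types, WNT3A and WNT7A passed the threshold on few stromal reads. Both passed the filter on low counts through the epithelial libraries and had too few reads to be tested in stroma alone. In this test 0.659% of protein-coding genes were called, and 5 of 29 members passed an unadjusted p under 0.05, beside 6.69%. In epithelial cells WNT3A had 58.5, 90.7 and 69.2 CPM with vehicle and 64.4, 86.6 and 74.0 CPM at 1 ng/mL, and WNT7A had 51.0, 58.4 and 59.9 CPM with vehicle and 54.2, 59.4 and 63.3 CPM at 1 ng/mL. In stroma WNT3A had 0.0875, 3.17 and 0 CPM with vehicle and 0 in all 3 libraries at 1 ng/mL, and WNT7A had 0, 1.99 and 0 CPM with vehicle and 0, 0.0848 and 0 CPM at 1 ng/mL. The 3 stromal libraries held 36 reads of WNT3A with vehicle, 35 of them in 1 library, and 0 at 1 ng/mL, and 22 reads of WNT7A, all in 1 library, against 1. That library was replicate 2 with vehicle, with epithelial markers at 3.70%, whose part in the result was not tested. The fitted difference, whose size depends on the prior count, was 6.73 ± 0.838 for WNT3A (adjusted p = 0.000981) and 4.20 ± 0.714 for WNT7A (adjusted p = 0.0116). Without replicate 2 neither was called, at 2.34 (adjusted p = 0.882) for WNT3A, and for WNT7A no stromal read was left. Without the replicate block 0 members were called, and with DESeq2 WNT3A alone was. WNT7B, FZD5 and FZD7 passed the unadjusted p only, with 2.15, 1.26 and 0.49. FZD5 had 3.76, 3.31 and 5.82 CPM with vehicle and 4.47, 3.78 and 7.06 CPM at 1 ng/mL in epithelial cells. In stroma FZD5 had 0.700, 0.634 and 0.650 CPM with vehicle and 0.370, 0.339 and 0.242 CPM at 1 ng/mL.

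At 10 ng/mL 0 members were called with edgeR (0% of protein-coding genes) and 0 with DESeq2, and FZD6 and SFRP4 passed an unadjusted p under 0.05 with -0.39 and -2.04, beside 4.05% of protein-coding genes. SFRP4 had 0, 0.453 and 0.108 CPM with vehicle and 0.984, 0.702 and 0.480 CPM at 10 ng/mL in stroma. In epithelial cells SFRP4 had 0.784, 0 and 2.16 CPM with vehicle and 0.557, 0 and 2.20 CPM at 10 ng/mL.

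In stroma the spread between replicate numbers was wider than that between doses for most genes, members or not. Replicates were averaged over doses, and doses over replicates, as log2(CPM + 0.5) for genes with a mean of at least 1 CPM. The spread was wider for 20 of 23 stromal members in the insulin and 22 of 27 in the glucose experiment. Among protein-coding genes the same held for 84.9% and 86.2%. In the insulin experiment both spreads are ranges of 3 means of 3 libraries. In the glucose experiment the replicate spread is the range of 3 means of 2 libraries, and the dose spread that of 2 means of 3. The glucose counts therefore set unlike ranges side by side, and the replicate range tends to be wider even with no replicate effect. In the insulin experiment stromal DKK2 had 23.3, 220.0 and 12.8 CPM with vehicle, 16.8, 223 and 13.4 CPM at 1 ng/mL and 23.5, 213 and 11.2 CPM at 10 ng/mL in replicates 1, 2 and 3. Replicate 2 was the highest at each dose, the replicates differed 16.9-fold and the doses 1.09-fold, and 0.0576% of 12149 protein-coding genes had a replicate difference as large. DKK1 differed 9.92-fold between replicates and 1.06-fold between doses, and SFRP1 8.43-fold and 1.10-fold. These 3 secreted inhibitors, the members with the widest replicate difference there, were all highest in replicate 2. The pattern was not general among the inhibitor genes. Averaged over doses, SFRP2 had 357, 283 and 262 CPM in replicates 1, 2 and 3, and DKK3 had 562, 732 and 728 CPM. Over the 23 members at this level the median difference was 1.42-fold between replicates and 1.10-fold between doses, beside 1.22-fold and 1.08-fold over protein-coding genes.

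In the stromal glucose libraries the highest replicate was another for SFRP1, with 19.9, 9.49 and 238 CPM at 5 mM and 31.8, 8.94 and 77.0 CPM at 50 mM, a 14.0-fold difference between replicates. WNT4 differed 11.2-fold and FZD7 9.74-fold, both highest in replicate 2, with 1.06-fold and 1.02-fold between glucose concentrations. FZD7 differed 1.05-fold between replicates in the stromal insulin libraries. The median over 27 members in stromal glucose libraries was 2.81-fold between replicates, beside 1.45-fold over 12674 protein-coding genes. In epithelial libraries WNT5B differed 8.04-fold between replicates in the glucose and 7.11-fold in the insulin experiment, and WNT3A 1.05-fold and 1.41-fold. The labels do not say which animal a replicate number stands for, and the numbers are not tied between the experiments.

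**Figure D5:**
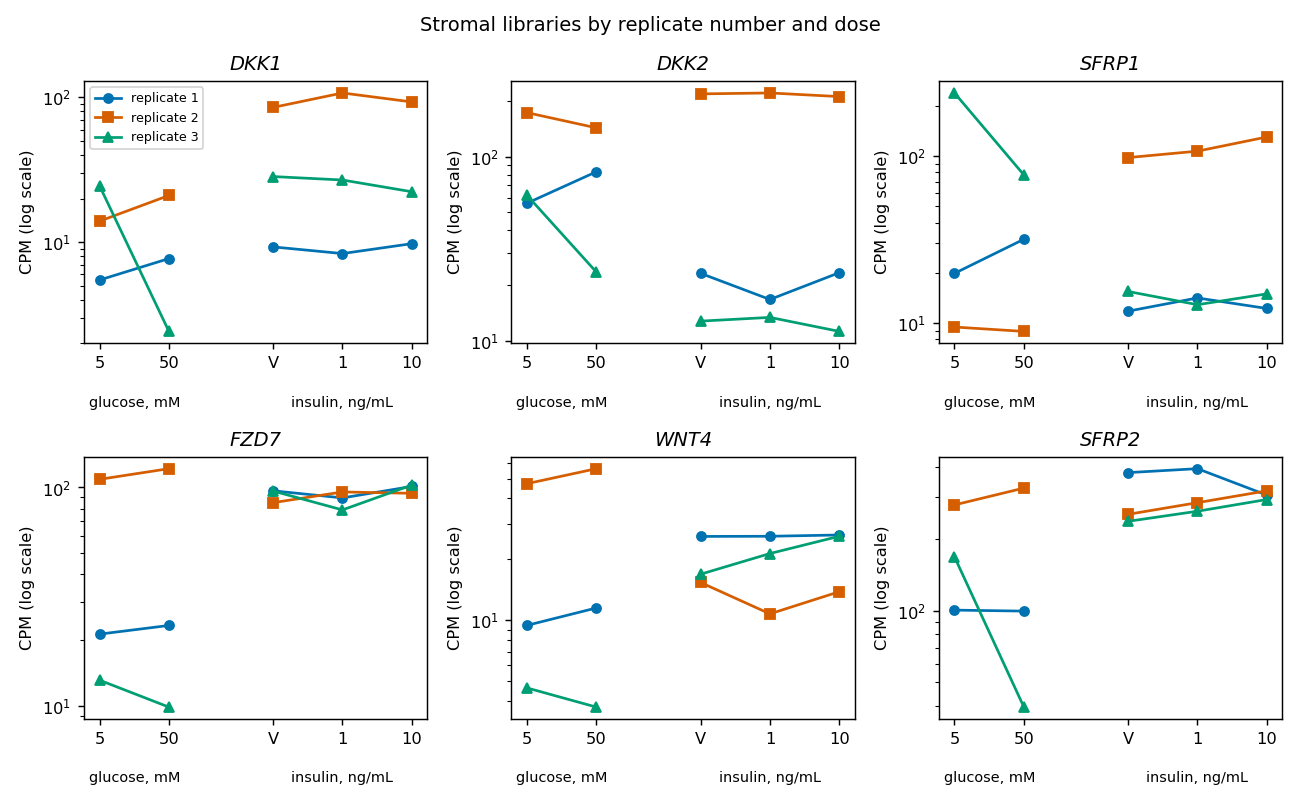
DKK1, DKK2, SFRP1, FZD7, WNT4 and SFRP2 in the 15 stromal libraries, as CPM on a log axis, against glucose concentration or insulin dose (V, vehicle), with a line for each replicate number. In the insulin experiment the lines of DKK1, DKK2 and SFRP1 run nearly flat with replicate 2 above the others, and in the glucose experiment SFRP1 was highest in replicate 3.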

How the data were processed

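RNA was sequenced from 30 libraries in 10 groups of 3, per the labels. The authors made strand-specific libraries and read 75 bp single ends. Cutadapt and a quality filter trimmed the reads, Rsubread placed them on the cow genome of Ensembl 96, and featureCounts counted unique alignments per gene. Tool versions and the strand setting are not given in the sources used here. The deposited counts were raw, without normalization. Symbols and gene types came from the deposited comparison tables, whose fold changes and p-values were not used. Reads of overlapping genes cannot be told apart without the strand setting. In RefSeq (assembly ARS-UCD2.0, used for names and neighbours only) WNT2B overlaps ST7L and WNT5B overlaps FBXL14, and WNT5A, WNT10A, WNT11, DKK2 and DKK3 overlap lncRNA genes, so their values are uncertain, as are those of close paralogs under unique alignment.

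Each comparison was fitted on its 6 libraries (12 for differences of effects) with edgeR 4.0.16 in R 4.3.3, using TMM, filterByExpr, the quasi-likelihood test and the replicate number as a block, since the study's methods state a paired design. Within a cell type, libraries of one number deviated together in each pair of groups (correlation 0.198 to 0.860), and between cell types the correlation was 0.0327 to 0.526. Adjusted p-values cover all genes tested, and background counts cover protein-coding genes. The scripts were tested on simulated data. Alternatives were no block, DESeq2 1.42.0, RLE factors, no filter (at least 1 count), a filter at 1 CPM in 3 libraries, each replicate left out, and a joint fit of the 9 insulin libraries of a cell type. Replicates of a group differed by more than counting noise. The study calls the replicates of a group biological, and the labels do not tie them to animals. With the block, p-values set a difference against the spread left once the replicate numbers are fitted.

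The genes and lists were chosen with earlier results of these data known. Values per library were given for members called at 5 mM and with vehicle or with an unadjusted p under 0.05 in a treatment or difference test. FZD4 and FZD10 met neither condition, and their values were given outside this rule. Up to 8 pathway genes were named by their mean difference.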

Additional observations from a re-analysis of the deposited data

Results flagged for a closer look

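WNT3A and WNT7A are listed here because their fitted difference between the cell types in the effect of 1 ng/mL insulin passed the threshold, at 6.73 for WNT3A and 4.20 for WNT7A on the log2 scale (epithelial minus stromal, adjusted p = 0.000981 and 0.0116, edgeR). Both genes entered this test through their epithelial reads, and the stromal side rests on 36 reads of WNT3A with vehicle against 0 and 22 of WNT7A against 1, all but 1 of the vehicle reads in 1 library, so the values are no support for a difference between the conditions. WNT3A had 2.34 without replicate 2 (adjusted p = 0.882), and WNT7A then had no stromal read. The stromal vehicle library of replicate 2 held 3.17 CPM of WNT3A and 1.99 CPM of WNT7A, with the median epithelial marker at 3.70% of its epithelial level, and its part in the result was not tested.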

How the results depend on the processing

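Of the recomputed counts of called members, 160 stayed within 1.5 times the reported count and 14 did not. The 160 include counts of 0 that stayed at 0. Such counts came from the treatment comparisons and difference tests, where few genes of any kind were called, so they say little about stability. Without the replicate block, the calls at 50 mM glucose were 2 in the epithelial and 7 in the stromal direction, beside 246 and 806 of 13235 protein-coding genes. The difference in the effect of 1 ng/mL insulin then gave 0 calls. With DESeq2 that test gave 1 call (WNT3A), and the difference in the effect of glucose gave 1 (WNT7A). With no filter on low counts, stromal cells gave 1 call for 1 ng/mL over vehicle (WNT3A, at -6.59) and 2 for 10 over 1 ng/mL (WNT3A and WNT7A). Leaving out each replicate in turn gave 0 to 5 calls in the epithelial and 0 to 16 in the stromal direction at 50 mM, with both lowest values without replicate 1, where 0 of 13351 protein-coding genes were called. It gave 0 to 1 calls for glucose in epithelial cells and 0 to 1 in stromal cells, 0 to 3 for the difference in the effect of glucose, 0 to 2 at 1 ng/mL insulin and 0 to 2 at 10 ng/mL, where WNT7A and WNT3A were called without replicate 2 at -7.23 and -4.44. That difference at 10 ng/mL had no stable direction, at -0.70 for WNT7A but 3.34 without replicate 1, and at 0.28 for WNT3A but 2.84 without replicate 1 and -2.58 with DESeq2. WNT7B changed sign in the difference at 1 ng/mL, at -0.66 without replicate 2 and up to 2.94 without replicate 3. The causes were not tested. With 3 replicates per group and libraries down to 8826470 reads, members near the 3-read limit (RSPO2, SFRP4, SFRP5, FZD10 in stroma) could not be compared closely.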
